A study of Mus musculus with 3 samples.

Results

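The ABC transporter genes of the mouse were described in 3 RNA sequencing libraries of cultured hippocampal neurons. Members were the gene rows whose symbol is Abc, a subfamily letter from a to g and a number, with or without a final a or b. The pattern found 50 of 47593 gene rows, each symbol once. The libraries, replicates 1 to 3, formed 1 group of wild-type primary hippocampal neurons. These grew at 37 °C and 5% CO2 in Neurobasal that held 1% GlutaMAX and 10% B27, and then had fresh medium containing penicillin-streptomycin and B27 for 24 h. An arm treated with apoE particles belongs to the design but was not analysed here, which leaves levels, and no effect of a treatment, to report. Whether replicates stand for separate cultures or animals is not stated, and their spread may be technical only.

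ABC proteins couple ATP binding and hydrolysis to the movement of a substrate across a membrane. Subfamilies A and G carry mostly lipids, B and C hold the multidrug transporters and the sulphonylurea receptors, and D serves peroxisomes and lysosomes. Subfamilies E and F have ATP-binding domains without a membrane domain, and several act on ribosomes. In brain the family is known for loading cholesterol onto apoE, for fatty acid entry into peroxisomes and for drug exclusion at the blood-brain barrier.

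Levels are given as CPM (the share of a library's reads, scaled to a total of 1000000, from reads recovered from the deposited log2 values) and, where genes are set against each other, as RPKM (CPM per kilobase of annotated exon). Recovered reads numbered 18780578, 18683959 and 18885652. With 3 reads taken as the limit, a count of 0 allows a level of about 0.16 CPM in 1 library, and of 0.0532 CPM over all 3. Such limits and the intervals below cover counting error only. All 8 neuron marker genes were detected, with a summed level of 6771 to 6819 CPM, and 7 of 8 astrocyte markers, at 1895 to 1921 CPM. Oligodendrocyte lineage markers summed to 286 to 303 CPM (7 of 10 detected), mural and fibroblast markers to 55.6 to 61.6 CPM (4 of 8), and choroid plexus and ependymal markers to 18.4 to 20.2 CPM (2 of 6). Microglial markers lay at 5.32 to 7.47 CPM (1 of 10) and endothelial markers at 6.18 to 6.46 CPM (1 of 8). Of the endothelial markers, Kdr was the one detected, at 4.26, 3.96 and 3.87 CPM, and Cldn5 had 0 reads. Which cells carried the ABC transcripts was not tested, and fewer cells of a type cannot be told apart from less RNA per cell.

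At 1 CPM or more in every library, 31 of the 50 genes were detected. That is 62% of them, against 58.3% of 21065 protein-coding genes and 28.7% of all gene rows, so the share lay near that of protein-coding genes. The median over the members was 5.72 CPM and that over protein-coding genes 5.41 CPM. Together the members held 0.16% of the reads (0.160 ± 0.0004%, SD, n = 3). All genes of subfamilies D (4), E (1) and F (3) were detected, as were 8 of 16 in A, 7 of 10 in B, 5 of 10 in C and 3 of 6 in G. The lowest gene inside the limit was Abca9, at 1.76, 1.23 and 1.22 CPM, and the next one outside it was Abca13, at 1.28, 1.18 and 0.953 CPM. The 4 highest genes, Abce1, Abca1, Abcf2 and Abca3, made up 50.6% of the summed CPM of the family. By role, the ribosomal and translation genes held 36.6%, the sterol exporters 19.4%, the endosomal and lysosomal genes 19.0% and the drug and anion exporters 9.24%.

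**Figure D1:**
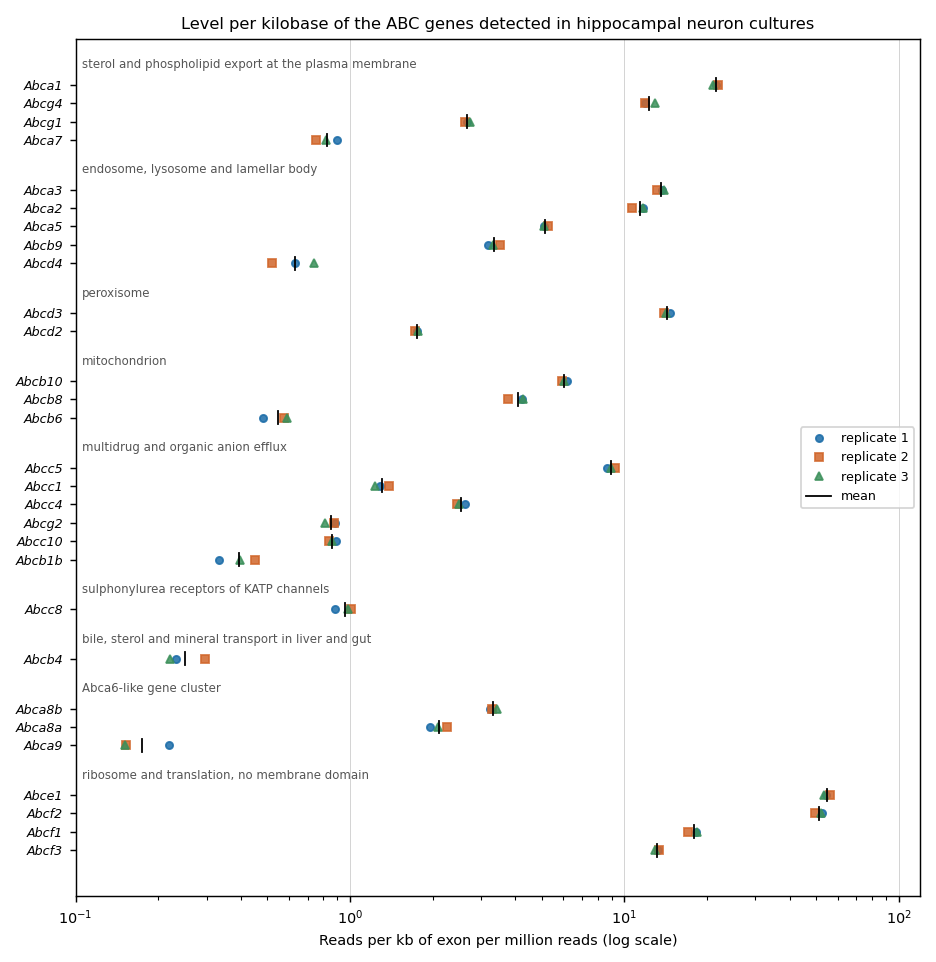
Level of 29 of the 31 detected ABC genes in RPKM (horizontal log axis), grouped by role, with a symbol for each of 3 libraries and a bar at the mean. Abce1 and Abcf2 stand at 54.8 and 51.3 RPKM, Abca1 follows at 21.5 RPKM with these summed exon lengths, and Abca9 is lowest at 0.174 RPKM.

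Per kilobase, the highest pair of members were not transporters but Abce1 and Abcf2. The 4 genes without a membrane domain took 36.6 ± 0.308% of the summed CPM of the family (SD, n = 3). Abce1, whose product splits ribosomes for reuse after termination, had 327, 338 and 321 CPM, the highest value of the family in each library. It lies on chromosome 8 from 79683462 to 79711740 (GRCm38, minus strand). By summed exons it stood at 54.8 ± 1.49 RPKM and Abcf2 at 51.3 ± 1.5 RPKM, and no library of Abcf2 reached the lowest of Abce1. With the longest transcript Abce1 stood at 86.7 RPKM, while Abcf2 kept 51.3 RPKM. Abcf1, which binds the initiation factor eIF2, had 80.5, 75.2 and 81.0 CPM (17.9 ± 0.724 RPKM). Abcf3, related to the yeast factor GCN20, had 47.2, 47.6 and 45.9 CPM (13.2 ± 0.251 RPKM). The log2 ratio of Abcf3 over Abcf1 per kilobase was −0.43 ± 0.08 (SD, n = 3), lower in each library. All 9 partner genes of ribosome recycling and initiation were detected, led by Eif2s2 at 326 ± 11.9 CPM and the termination factor gene Etf1 at 202 ± 5.85 CPM.

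Exporters of sterol and phospholipid at the plasma membrane followed, with all 4 genes detected. Abca1, which hands cholesterol and phospholipid to lipid-poor apolipoproteins such as apoE, had 223, 227 and 218 CPM. It lies on chromosome 4 from 53030787 to 53159895 (minus strand). Abcg4, a sterol exporter known mainly from brain, had 62.1, 62.2 and 67.1 CPM, and its relative Abcg1 had 19.5, 19.1 and 19.96 CPM. The libraries of the 3 genes did not overlap, with 21.5 ± 0.407, 12.2 ± 0.551 and 2.68 ± 0.0586 RPKM for Abca1, Abcg4 and Abcg1. Abca7, a lipid transporter gene tied to Alzheimer risk in humans, was far lower at 6.07, 5.08 and 5.51 CPM. Per kilobase the log2 ratio was 2.79 ± 0.05 for Abca1 over Abcg1, 2.0 ± 0.04 for Abcg4 over Abcg1 and −4.06 ± 0.09 for Abca7 over Abca1 (SD, n = 3 each), each of the same sign in 3 of 3 libraries.

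Abca1 is a classical target of the oxysterol receptors LXR, which bind a direct repeat of half-sites, and its promoter is shown for that element. The RefSeq promoter, from 250 bases before to 50 bases after the start site (GRCm38.p6, minus strand, chr4:53159846-53160145), holds a match to the sequence GGTTA, any 5 bases and GGTCA, on its other strand. The match is printed in capitals and begins at position −67 relative to the start site:
Abca1: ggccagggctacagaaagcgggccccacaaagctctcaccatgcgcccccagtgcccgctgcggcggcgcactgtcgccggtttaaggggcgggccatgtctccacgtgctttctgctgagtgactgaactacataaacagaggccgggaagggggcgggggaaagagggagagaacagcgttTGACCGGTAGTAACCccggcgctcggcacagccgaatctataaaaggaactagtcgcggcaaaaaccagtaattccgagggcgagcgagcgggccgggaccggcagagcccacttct
The letters were searched on both strands, and 16 of 32851 promoters in the table, 0.0487%, held them. Abca1 was the only member with a match among the 38 members that have a promoter there. Abcg1 and Abcg4 have no promoter there and were not searched. Only this spelling was searched, so the count does not tell whether other members hold an LXR element spelled otherwise. The spelling has unlike half-sites, GGTTA and GGTCA, and was searched with Abca1 in view. The match in Abca1 and its rarity are therefore no test, and nothing is drawn from them. An E-box, CACGTG, begins at position −147 of the same promoter, does not overlap the capitals, and occurs in 7.15% of promoters and in 6 members. A match is a stretch of letters and no binding was measured. Of the 10 partner genes of sterol efflux, 8 were detected. Apoe led at 1224 ± 35.9 CPM and Srebf1, a regulator of fatty acid synthesis and LXR target, followed at 103 ± 8.0 CPM. Nr1h2, which encodes LXR beta, had 32.1, 28.2 and 30.0 CPM, whereas Nr1h3, which encodes LXR alpha, had 9 reads in each library, and Apoa1 had 14 reads in all.

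All 5 genes of endosomes, lysosomes and lamellar bodies were detected, and 3 of them were among the 10 highest of the family in CPM. Abca3, known for packing surfactant lipid in the lung, had 129, 123 and 131 CPM. Abca2, a late endosomal transporter abundant in oligodendrocytes, had 97.8, 88.8 and 98.0 CPM, and Abca5, of the same compartments, 58.5, 60.1 and 58.2 CPM. Per kilobase Abca3 lay little above Abca2, at 13.6 ± 0.438 and 11.4 ± 0.626 RPKM (log2 ratio 0.25 ± 0.04), and Abca5 lay below Abca2 (−1.07 ± 0.10). The first ratio was 0.72 with the length of the longest transcript. Lower down were Abcb9, a lysosomal peptide transporter, at 17.8, 19.7 and 18.6 CPM, and Abcd4, which moves vitamin B12 out of lysosomes, at 5.06, 4.17 and 5.93 CPM. Exons of a gene on the opposite strand, D330041H03Rik, cover 9.75% of the Abca3 exons, and no source used here says whether reads were counted by strand.

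Among the peroxisomal half-transporters, Abcd3 stood well above Abcd2. Abcd3, which imports branched-chain and dicarboxylic acids, had 97.1, 92.1 and 93.6 CPM. Abcd2, an importer of very long chain and polyunsaturated fatty acids, had 10.4, 10.3 and 10.5 CPM. Their libraries did not overlap per kilobase, with 14.3 ± 0.389 RPKM for Abcd3 and 1.75 ± 0.0222 RPKM for Abcd2 (SD, n = 3 each). With the longest transcript, which is shorter than the summed exons of Abcd3 (3489 against 6593 bases), Abcd3 stood at 27.01 RPKM, above Abca1 at 21.7 RPKM, whereas by summed exons it lay below Abca1. All 12 partner genes of peroxisomal oxidation and membrane import were detected, among them the membrane protein receptor gene Pex19 at 104 ± 2.03 CPM.

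Among the mitochondrial genes, Abcb10 and Abcb8 were close in level. Abcb10, known for haem synthesis in red cell precursors, had 26.7, 25.4 and 25.9 CPM, and Abcb8 had 20.1, 17.9 and 20.2 CPM. Per kilobase they stood at 6.04 ± 0.146 and 4.09 ± 0.277 RPKM (SD, n = 3 each), with Abcb10 higher in each library by summed exons. With the longest transcript the order turned, to 6.04 RPKM for Abcb10 and 6.31 RPKM for Abcb8. Exons of Gm45890 on the opposite strand cover 10.3% of the Abcb10 exons, while Abcb8 has no such overlap. Whether reads were counted by strand is not known. Abcb6, a porphyrin transporter, had 48, 57 and 59 reads, 2.91 ± 0.309 CPM, a value that is uncertain because Gm29253 on the same strand shares 55.2% of its exon bases. All 12 partner genes for iron-sulphur clusters and haem were detected, led by Isca1 (104 ± 0.532 CPM) and Glrx5 (46.1 ± 3.60 CPM).

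**Figure D2:**
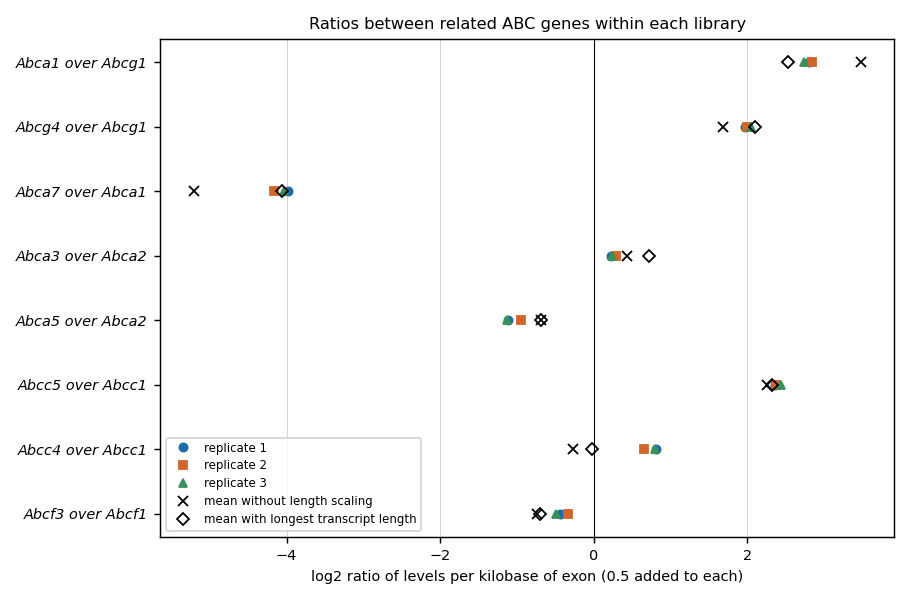
Log2 ratio of levels per kilobase (horizontal axis) for the 8 gene pairs with more than 3 reads for each gene, with a symbol for each library, a cross for the mean without length scaling and a diamond for the mean with the longest transcript. Abca7 over Abca1 lies at −4.06 and Abca1 over Abcg1 at 2.79, while Abcc4 over Abcc1 has alternative values on the other side of 0.

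Among the 9 genes of drug and organic anion efflux, 6 were detected and Abcc5 stood above the others. Abcc5, an exporter of cyclic nucleotides and glutamate conjugates, had 92.5, 98.7 and 95.3 CPM. Abcc1, which exports glutathione conjugates, had 19.5, 20.9 and 18.6 CPM and Abcc4, an exporter of cyclic nucleotides and prostaglandins, 16.8, 15.7 and 16.0 CPM. Abcc5 over Abcc1 was 2.39 ± 0.05 in log2 per kilobase. For Abcc4 over Abcc1 the ratio was 0.75 ± 0.08, but −0.27 without length scaling and −0.027 with the longest transcript, since the summed exons of Abcc1 (15092 bases) exceed its longest transcript (6792 bases). Abcg2, the breast cancer resistance protein gene, had 7.19, 7.12 and 6.62 CPM and Abcc10, a further multidrug resistance gene, had 6.07, 5.73 and 5.88 CPM. Abcc12 had 40 reads in all and Abcb5 none. Of 7 xenobiotic sensor genes 5 were detected, led by Keap1 (43.4 ± 2.09 CPM) and Nfe2l2 (40.4 ± 0.434 CPM), while Nr1i2 and Nr1i3, the receptors PXR and CAR, had 3 and 2 reads.

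The mouse has a pair of P-glycoprotein genes, and nearly all reads of the pair fell on Abcb1b. Abcb1a, the form made by brain capillaries, had 1, 0 and 1 reads. Abcb1b had 50, 67 and 60 reads, or 2.66, 3.59 and 3.18 CPM. Per kilobase the read ratio of Abcb1b over Abcb1a was 60.7, with a 95% exact binomial interval of 16.6 to 505 for counting error, and that of Abcg2 over Abcb1a was 132 (36.3 to 1094). The transcripts are alike, with 18.6% of the 50-base words of Abcb1a found in other genes, chiefly Abcb1b, and 19.6% of those of Abcb1b, chiefly in Abcb1a, so reads from shared stretches may have been lost or split. Their RefSeq promoters (GRCm38.p6, plus strand, chr5:8566841-8567140 for Abcb1a and chr5:8797897-8798196 for Abcb1b) are shown with CG dinucleotides in capitals:
Abcb1a: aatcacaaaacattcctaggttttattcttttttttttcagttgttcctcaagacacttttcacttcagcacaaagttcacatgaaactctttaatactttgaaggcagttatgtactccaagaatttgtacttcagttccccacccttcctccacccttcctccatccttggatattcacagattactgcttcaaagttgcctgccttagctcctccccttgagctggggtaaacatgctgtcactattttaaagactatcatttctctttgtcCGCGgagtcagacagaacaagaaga
Abcb1b: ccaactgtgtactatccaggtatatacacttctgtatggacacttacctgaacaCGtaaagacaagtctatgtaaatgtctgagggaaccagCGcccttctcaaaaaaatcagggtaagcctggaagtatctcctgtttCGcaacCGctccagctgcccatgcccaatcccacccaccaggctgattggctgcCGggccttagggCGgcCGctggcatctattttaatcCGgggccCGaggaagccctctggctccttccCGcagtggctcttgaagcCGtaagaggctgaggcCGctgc
The Abcb1a promoter holds 2 CG and the Abcb1b promoter 12. The RefSeq start of Abcb1a lies 92986 bases from the GENCODE start of the gene, so the exons counted for Abcb1a may differ from those of the RefSeq transcript. For the same reason the stretch printed for Abcb1a may not be the promoter of the gene as counted.

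Of the sulphonylurea receptors, the regulatory subunits of ATP-sensitive potassium channels, only the gene of SUR1 was detected. Abcc8, which encodes SUR1, had 7.14, 8.19 and 7.94 CPM. Abcc9, which encodes SUR2, had 1 read in all. Per kilobase Abcc8 exceeded Abcc9 by a read ratio of 452, with a 95% exact binomial interval of 80.8 to 17905. The pore subunit genes showed the same division, with 4.31, 3.75 and 3.07 CPM for Kcnj11 (Kir6.2) and 0 reads for Kcnj8 (Kir6.1). Abcc9 and Kcnj8 mark mural cells of vessels, and the other mural and fibroblast markers were divided. Dcn, Acta2, Pdgfrb and Col1a1 had means of 23.2, 19.8, 9.21 and 4.24 CPM. Vtn, Rgs5 and Lum lay lower, at means of 0.941, 0.55 and 0.354 CPM. Whether mural cells were present was not tested.

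Genes of liver, gut, retina, skin and testis lineages were near or below the detection limit. Of 7 genes of bile, sterol and mineral transport, Abcb4, a phosphatidylcholine exporter of bile, was detected at 2.18, 2.78 and 2.07 CPM. Abcc2, the anion exporter of bile canaliculi, had 10 reads, its basolateral relative Abcc3 had 9, and Abcc6, mutated in pseudoxanthoma elasticum in humans, had 2. The bile salt export pump gene Abcb11 had 1 read, and of the partners in sterol excretion Abcg5 had 1 and Abcg8 none. Among the other A-type genes, Abca13 had 64 reads, Abca4, the retinal transporter, and Abca12, of skin lipids, 27 each, and Abca17 had 47. Abca14 had 2 reads, and Abca15, Abca16 and Abcg3 had none. For the 5 members without a read (Abca15, Abca16, Abcb5, Abcg3 and Abcg8), the limit of 3 reads equals 0.0532 CPM over the 3 libraries. The exact 95% interval for counting error reached 0.0655 CPM for each.

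Some members are chromosomal neighbours, and levels differed widely between them. Within 100 kb of each other lay 17 members in 6 groups. On chromosome 11, Abca8b, Abca8a, Abca9, Abca6 and Abca5 run on the same strand from 109932190 to 110337716. The outer genes were highest, with 3.31 ± 0.1 RPKM for Abca8b, 2.10 ± 0.151 for Abca8a and 5.15 ± 0.0905 for Abca5, and the inner ones lowest, with 0.174 ± 0.0382 for Abca9 and 0.026 for Abca6, which had 1, 1 and 6 reads. Abca8a and Abca8b, little studied lipid transporter genes, had 12.3, 14.2 and 13.1 CPM and 24.0, 24.4 and 25.4 CPM. The groups of Abcb1a, Abcb1b and Abcb4 on chromosome 5 and of Abcc6 and Abcc8 on chromosome 7 also joined detected with undetected genes, whereas Abcg5 with Abcg8 and Abca14 with Abca15 and Abca16 were near or at 0 throughout.

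On chromosome 17, Abca3 and Abca17 are transcribed away from each other from starts 882 bases apart. Abca3 stood at 13.6 ± 0.438 RPKM and Abca17, whose human counterpart is a pseudogene, at 0.15 ± 0.0191 RPKM, with 0.799, 0.749 and 0.953 CPM. Their RefSeq promoters (GRCm38.p6, plus strand, chr17:24351773-24352072 for Abca3 and minus strand, chr17:24351010-24351309 for Abca17) are shown with CG dinucleotides in capitals because the genes differ in level while both promoters are rich in CG:
Abca3: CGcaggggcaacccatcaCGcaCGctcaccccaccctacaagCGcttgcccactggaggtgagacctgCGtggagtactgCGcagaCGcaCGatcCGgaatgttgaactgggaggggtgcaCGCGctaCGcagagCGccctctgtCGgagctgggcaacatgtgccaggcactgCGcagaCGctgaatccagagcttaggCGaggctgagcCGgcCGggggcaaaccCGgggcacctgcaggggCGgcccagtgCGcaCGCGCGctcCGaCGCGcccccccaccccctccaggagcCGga
Abca17: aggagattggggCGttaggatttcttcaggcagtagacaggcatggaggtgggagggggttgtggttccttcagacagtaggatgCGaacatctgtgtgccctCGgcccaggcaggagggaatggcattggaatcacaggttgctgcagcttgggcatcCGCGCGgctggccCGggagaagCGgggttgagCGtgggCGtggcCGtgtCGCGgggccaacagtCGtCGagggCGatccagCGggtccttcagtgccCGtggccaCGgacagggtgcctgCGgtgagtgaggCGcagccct
The promoter of Abca3 holds 29 CG and that of Abca17 holds 21.

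**Figure D3:**
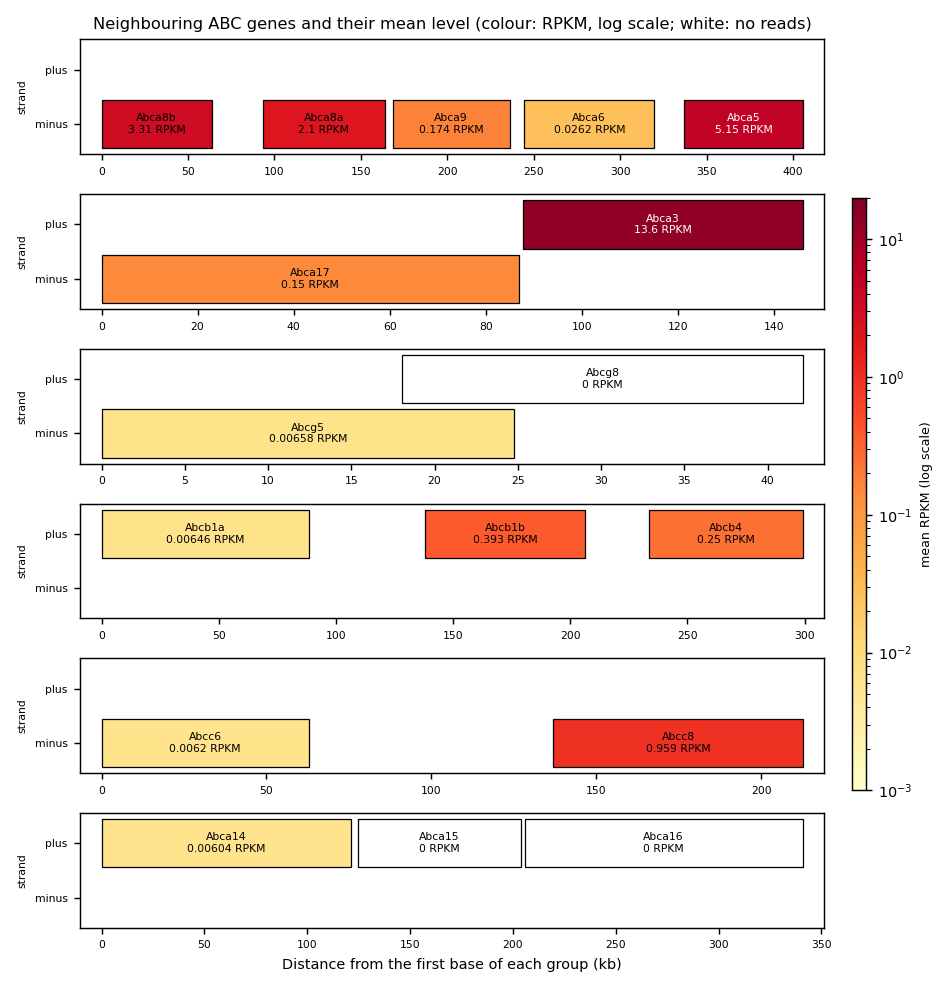
Members within 100 kb of each other, drawn to scale by distance from the first base of each group (kb) and by strand, with the mean level in RPKM as colour on a log scale and white for no reads. Abca3 (13.6 RPKM) adjoins Abca17 (0.15 RPKM), and Abca9 and Abca6 lie between Abca8a and Abca5.

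Over the family, detected genes mostly had promoters rich in CG. A RefSeq promoter was found for 38 members, 22 detected and 16 not, and where several were listed the one with the most CG was taken. For 35 of the 38 the RefSeq start lay within 1000 bases of the GENCODE start, and Abcb1a was not among them. The median was 25 CG per 300 bases for detected members, with a range of 2 to 45, and 7.5 for the others, with a range of 1 to 22. The same medians over 16002 protein-coding genes were 23 for detected and 3 for other genes. At 10 CG or more lay 20 of the 22 detected members and 7 of the 16 others, against 88.8% and 19.6% of protein-coding genes. The exceptions among detected members were Abca8a with 4 CG and Abca9 with 2, both of the chromosome 11 group. Among undetected members Abca14 had 22, Abca17 and Abcg8 21 each and Abcc9 16 CG. These are counts of letters, given as a description.

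**Figure D4:**
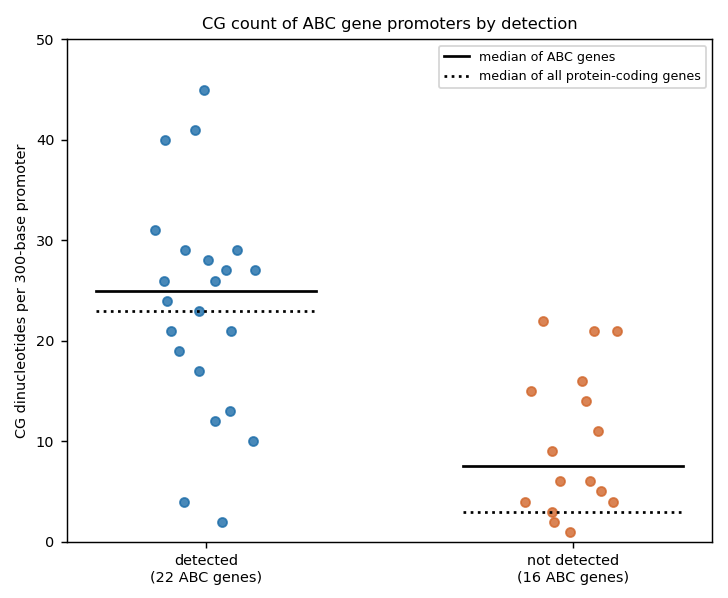
CG dinucleotides per 300-base promoter (vertical axis) of 22 detected and 16 undetected ABC genes, 1 point a gene, with the median of the ABC genes as a solid line and of all protein-coding genes as a dotted line. The ABC medians are 25 and 7.5, and the groups overlap between 2 and 22 CG.

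Ordered per kilobase, the 31 detected genes fell into a partly resolved sequence. In 19 of 30 adjacent places the lowest library of the higher gene lay above the highest library of the next gene. In the other 11 the ranges of the libraries overlapped. Among the overlapping neighbours were Abcd3, Abca3 and Abcf3 (14.3, 13.6 and 13.2 RPKM) and Abcg1 and Abcc4 (2.68 and 2.53 RPKM). So was the run of Abcc8, Abcc10, Abcg2 and Abca7 (0.959 to 0.823 RPKM). Within single libraries Abcd3 still lay above Abca3, and Abcg1 above Abcc4, each time. Across detected members the Spearman rho between RPKM by summed exons and by longest transcript was 0.988, a description over genes that share the same libraries and reads. The order of single genes depended on that choice, and Abcc8, for example, stood at 1.59 RPKM with the longest transcript. All 11 gene pairs kept 1 sign over the libraries. The exact sign-flip permutation p was 0.25 for each (two-sided, adjusted 0.25 over the 11 pairs), the smallest that 3 libraries allow, so no ratio could pass 0.05.

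No member passed the adjusted threshold for a difference between the libraries beyond counting error. This does not show that counting error was the only source of spread. With a mean of 10 reads or more, 34 members were tested by a chi-square test with Benjamini-Hochberg adjustment over 15131 genes, and 0 had an adjusted p below 0.05, where 8.62% of all tested genes did. At an unadjusted p below 0.05 there were 3 members, 8.82%, against a share of 20.7% over all genes. By the chi-square test they included Abca2 (p = 0.00603, adjusted 0.0626) and Abce1 (p = 0.0088, adjusted 0.0812). Abca2 was lowest and Abce1 highest in replicate 2. The median chi-square per degree of freedom was 1.16 for tested members and 1.19 for all tested genes. Without replicate 1, 3 members passed the adjusted threshold, Abca2 and Abce1 among them. The share of all genes that passed in that setting is not given, so this count cannot be set against genes at large. Against the dispersion trend recovered with the reads, 0 members passed with or without adjustment, where 0.126% of genes passed with it and 1.14% without. That last share is below what a p threshold of 0.05 would give, so the trend allowed more spread than these libraries had. The test could therefore hardly call a member, and nothing is drawn from it.

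The deposited values hide most of this spread, since they draw the libraries of a gene together. For the 8 tested members with a mean of 10 to 100 reads, the median SD between libraries was 0.0043 log2 units in the deposited values and 0.23 in recovered reads. For the 10 members with 1000 reads or more it was 0.02 and 0.04. Abcd4, with 95, 78 and 112 reads, had an SD of 0.012 in deposited values and of 0.25 in recovered reads.

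**Figure D5:**
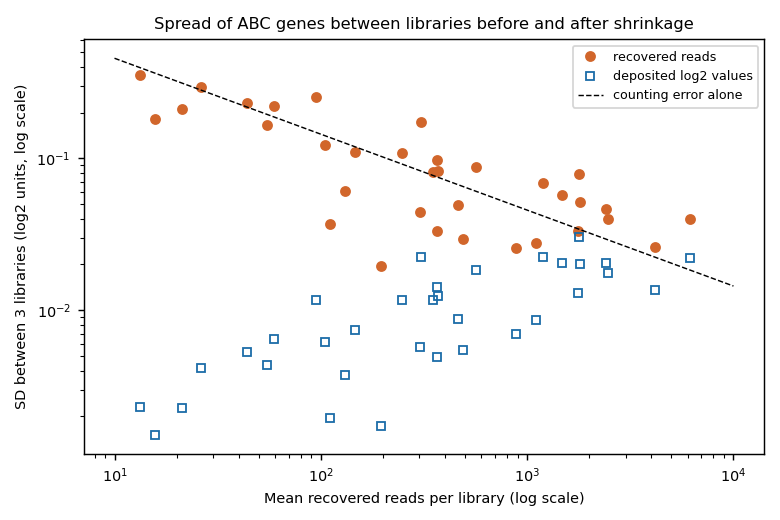
SD between the 3 libraries in log2 units (vertical log axis) against mean reads per library (horizontal log axis) for the 34 tested ABC genes, as filled circles for recovered reads and open squares for deposited values, with the SD of counting error alone as a dashed line. Recovered reads lie on both sides of the dashed line, and mostly above it for members with a mean of 1000 reads or more. Deposited values lie below the recovered ones for each gene, by the most at low counts.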

How the data were processed

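The assay was RNA sequencing of 3 libraries in 1 group. Each deposited file of the authors lists gene symbols with a log2 level and has no header. Per the submitters' processing notes, FastQC, HISAT2, featureCounts and DESeq2 were used with the GRCm38 genome. Their versions, settings, annotation and strand handling were not given. The values have the form of a regularized log, which shrinks differences between libraries, most for genes with few reads.

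Reads were recovered by inverting a ridge-penalised negative binomial fit with 6 shared parameters. Within 0.1 of a whole number lay 99.9% of 67797 values, and all 126 values of the 42 members inverted. For genes of a mean log2 of 14 or more, which include no member, the share was 80.8%. Refitting gave back the deposited values to within 0.001. Genes with 1 read in all were read from their 3 patterns, and rows at 0 in every library were taken as no reads. Recovered reads were 18683959 to 18885652 per library, and 3 reads equal about 0.16 CPM.

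Coordinates, exon unions and transcript lengths came from GENCODE M21 (GRCm38), in which all 50 symbols matched. Promoters were RefSeq's on GRCm38.p6. No protein sequences were used. Pair ratios were log2 of CPM per kilobase with 0.5 added to each gene, averaged over libraries. Variation was tested by chi-square on 2 degrees of freedom against median-of-ratios size factors, and against the dispersion trend recovered with the reads. The recovery and the test were checked on counts simulated with known changes and counting error only, using the model and parameters fitted here. That check does not cover extra spread between libraries or values made by another model. Every member could be named, with reads or CPM, and of each partner list the 2 highest genes and those under 1 CPM. A few of these genes, and pairs that need them, are counted in totals but not reported here. Nr1h2 was named with its values known. Members, roles, lists and pairs were chosen with earlier results of these data known. Python 3.11.15, numpy 2.4.6, scipy 1.17.1 and pandas 2.3.3 were used. Alternatives were the deposited scale, thresholds, pseudocounts, lengths, size factors and leaving out each library.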

Additional observations from a re-analysis of the deposited data

How the results depend on the processing

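Of 119 alternative values, 115 kept their direction or stayed within their limits, 2 reversed and 2 moved. Both reversals concerned length: Abcc4 over Abcc1 was −0.27 without length scaling and −0.027 with the longest transcript. The share of the family in all reads was 0.174% with mitochondrially encoded genes left out of the total, which makes the total smaller. Leaving out a library gave 0 to 3 members beyond counting error (3 without replicate 1), and the cause was not tested. The share of all genes in these settings is not given beside them. Detected members numbered 32 on the deposited scale, 34 at 0.5 CPM, 30 at 2 CPM, 45 with any read and 31 to 32 with a library left out. Ratios to Abcb1a and Abcc9 depend most on the pseudocount, so read ratios are given for them. Other ratios with a low gene moved less. With pseudocounts of 0.1 and 0.01, Abca7 over Abca1 was −4.55 and −4.69, and Abcc5 over Abcc1 was 2.69 and 2.77. Leaving out a library could not reverse a ratio of the same sign in 3 libraries. No paired analysis was possible because there was 1 group. Depth limits statements on the 19 undetected genes.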

Other observations

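ABC genes with names outside the symbol pattern were also present. Tap1 and Tap2, which carry peptides to MHC class I molecules, had 9.16, 9.26 and 10.3 CPM and 2.29, 1.93 and 1.75 CPM. Cftr, the chloride channel gene of the C subfamily, had 3.89, 5.30 and 3.97 CPM. All 3 were above 1 CPM in every library. Among low members, Abca6 had 6 of its 8 reads in replicate 3 and Abcc2 had 1 of its 10 reads there; both were too low to be tested.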
